A study of Homo sapiens with 3 samples.

Results

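HMGA1 binding was described across the beta-globin and alpha-globin loci of DAMI cells, from the peaks whose summit (the base of highest signal) lay in 1 of 2 fixed hg19 windows. The beta-globin window ran from base 4700000 to base 5800000 of chromosome 11. It holds the gene cluster from HBB to HBE1 (5246696 to 5291373), the control region that follows HBE1 (to about 5310000) and olfactory receptor genes on either side. The alpha-globin window was the start of chromosome 16 up to base 500000, with the cluster from HBZ to HBA1 at 202854 to 227521. Of 648986 peaks in both deposited lists, 352 were in these windows: 136 of 263033 in the list called against histone H3 (the H3 list) and 216 of 385953 in the list called against input DNA (the input list).

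The study consists of 3 libraries, 1 sample each, from sonicated nuclei of DAMI cells grown in culture medium with fetal bovine serum: an HMGA1 ChIP, a histone H3 ChIP and input DNA without antibody. DAMI is a human leukaemic line, labelled with myeloproliferative neoplasm and acute myeloid leukaemia. It was established as megakaryoblastic and is described as a derivative of the erythroleukaemia line HEL. The files hold peaks and no expression values, so neither the cell label nor globin transcription could be checked. Both lists score the same HMGA1 library, and a peak found in both is therefore not a replicated peak. With 1 library per antibody no test between conditions was possible, and every interval covers counting error only.

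Haemoglobin is built from alpha-like and beta-like chains. The beta-like genes stand on chromosome 11 in the order in which they are used in development, read from the control region: HBE1 (embryonic epsilon), HBG2 and HBG1 (fetal gamma), HBD (the minor adult delta chain) and HBB (adult beta). The alpha-like genes are HBZ (embryonic zeta), HBM (mu), HBA2 and HBA1 (alpha) and HBQ1 (theta), and their main enhancers lie in introns of the neighbouring gene NPRL3, upstream of HBZ. The locus control region beyond HBE1 is the enhancer array of the beta-like genes. HMGA1 is an architectural chromatin protein whose AT-hooks bind the minor groove of AT-rich DNA. An H3 ChIP recovers DNA wrapped in nucleosomes, and input DNA shows how well a region is sampled without any antibody.

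Base composition is shown here for promoters of genes in and near the clusters, because HMGA1 prefers AT-rich DNA; the sequence under the peaks was not analysed here. Promoter sequences were taken from RefSeq on the GRCh38.p14 build, from 250 bases before to 50 bases after the gene start. Of the 8 globin genes HBB, HBD, HBG1, HBG2, HBE1, HBZ, HBA1 and HBA2, HBD matched an entry, and among the other alpha-like genes HBM did. Capitals mark unbroken runs of at least 6 A or T letters. The HBD promoter is at chr11:5234434-5234733 (minus strand) and the HBM promoter at chr16:165728-166027 (plus strand). These coordinates are not on the hg19 build of the peaks.
HBD: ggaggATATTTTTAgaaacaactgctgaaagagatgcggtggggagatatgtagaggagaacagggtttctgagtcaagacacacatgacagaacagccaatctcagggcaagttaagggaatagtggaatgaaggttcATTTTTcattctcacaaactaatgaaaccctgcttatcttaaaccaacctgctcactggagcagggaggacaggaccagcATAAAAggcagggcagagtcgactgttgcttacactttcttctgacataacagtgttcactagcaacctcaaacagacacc
HBM: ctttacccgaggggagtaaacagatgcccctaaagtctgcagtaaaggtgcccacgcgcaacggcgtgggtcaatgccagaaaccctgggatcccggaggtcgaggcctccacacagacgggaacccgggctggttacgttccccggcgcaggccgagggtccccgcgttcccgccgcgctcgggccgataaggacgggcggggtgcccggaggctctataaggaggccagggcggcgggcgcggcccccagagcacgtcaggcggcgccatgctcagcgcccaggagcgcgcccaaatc

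The HBD promoter was 55.3% A and T, with 3 such runs and a longest run of 9 letters, and 78.8% of all 27305 promoters had a lower A and T share. The HBM promoter was 30.7% A and T and had no run of that length (longest run 5 letters); 20.3% of all promoters were lower. The motif AGATAA, a form of the GATA factor motif, was searched on both strands. It matched once in HBD and not in HBM, and 10.5% of all promoters held it.

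Olfactory receptor promoters of chromosome 11 were richer in A and T than promoters of the chromosome 16 neighbours. The OR51, OR52 and OR56 olfactory receptor genes were taken from all of chromosome 11, not from the window alone. Promoters of 39 of these 55 genes were present. Their median A and T share was 60% (quartiles 53.8 to 63.8%), every one of the 39 had a run of at least 6 A or T letters, and 13 (33.3%) held AGATAA. For the TRIM genes of the same region, which encode ubiquitin ligases, 6 of 7 promoters were present, with a median of 42.5%. For the chromosome 16 neighbours, a list that included the globin genes HBM and HBQ1, 13 of 17 promoters were present, HBM among them. Their median was 29.3% (quartiles 28.3 to 33.7%), 5 (38.5%) had a run, and 1 (7.69%) held the motif. Over all promoters the median was 41.7% (quartiles 32.3 to 53.3%) and 62% had a run.

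**Figure D1:**
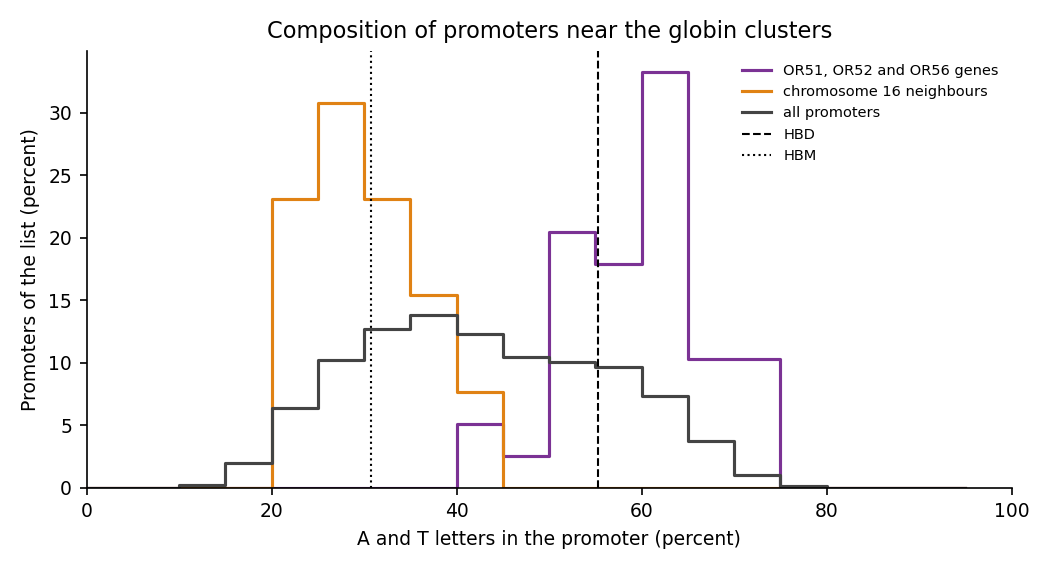
Share of A and T letters in 300-base promoters (horizontal axis, percent) against the percent of each promoter list (vertical axis), with the HBD and HBM promoters as vertical lines. The olfactory receptor promoters of chromosome 11 center on 60%, the chromosome 16 neighbours on 29.3% and all promoters on 41.7%.

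HMGA1 peaks were denser across the beta-globin window than across the alpha-globin window. The H3 list placed 123 peaks in the 1.1 Mb beta-globin window and 13 in the 0.5 Mb alpha-globin window, which is 111.8 peaks per Mb (exact Poisson 95% interval 92.9 to 133.4) and 26 per Mb (13.8 to 44.5). The input list placed 196 and 20 peaks there, or 178.2 per Mb (154.1 to 204.9) and 40 per Mb (24.4 to 61.8). The beta-globin window thus held 4.3 times the density of the alpha-globin window by the H3 list and 4.45 times by the input list. The intervals did not overlap in either list, but they do not cover the spread between regions of the genome. Peaks covered 3.62% of the beta-globin window and 0.654% of the alpha-globin window in the H3 list, and 6.47% and 1.15% in the input list. The first peak of the alpha-globin window had its summit at base 90441. With that window counted from its first peak on, the ratio was 3.52 by the H3 list and 3.65 by the input list.

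Against the rest of the genome both windows lay within the range of other regions. All autosomes together held 90.9 peaks per Mb by the H3 list and 132.4 by the input list. The beta-globin window was at 1.23 and 1.35 times these values, and the alpha-globin window at 0.286 and 0.302 times. Cut into windows of 1.1 Mb, the autosomes had a median of 82 peaks per window in the H3 list (quartiles 44 to 140) and 130 in the input list (78 to 202). The beta-globin window exceeded 69.1% of 2480 such windows by the H3 list and 73.3% of 2481 by the input list. In windows of 0.5 Mb the medians were 36 (quartiles 19 to 65) and 58 (34 to 94), and the alpha-globin window exceeded 14.1% of 5408 and 9.3% of 5419.

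Each chromosome as a whole already differed in the same direction. Chromosome 11 held 73.9 peaks per Mb by the H3 list and 116.1 by the input list, and chromosome 16 held 24.9 and 50.1. The beta-globin window was 1.51 and 1.53 times as dense as its chromosome. The alpha-globin window was at 1.04 and 0.799 times the density of chromosome 16, so its low density was close to that of the chromosome around it.

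**Figure D2:**
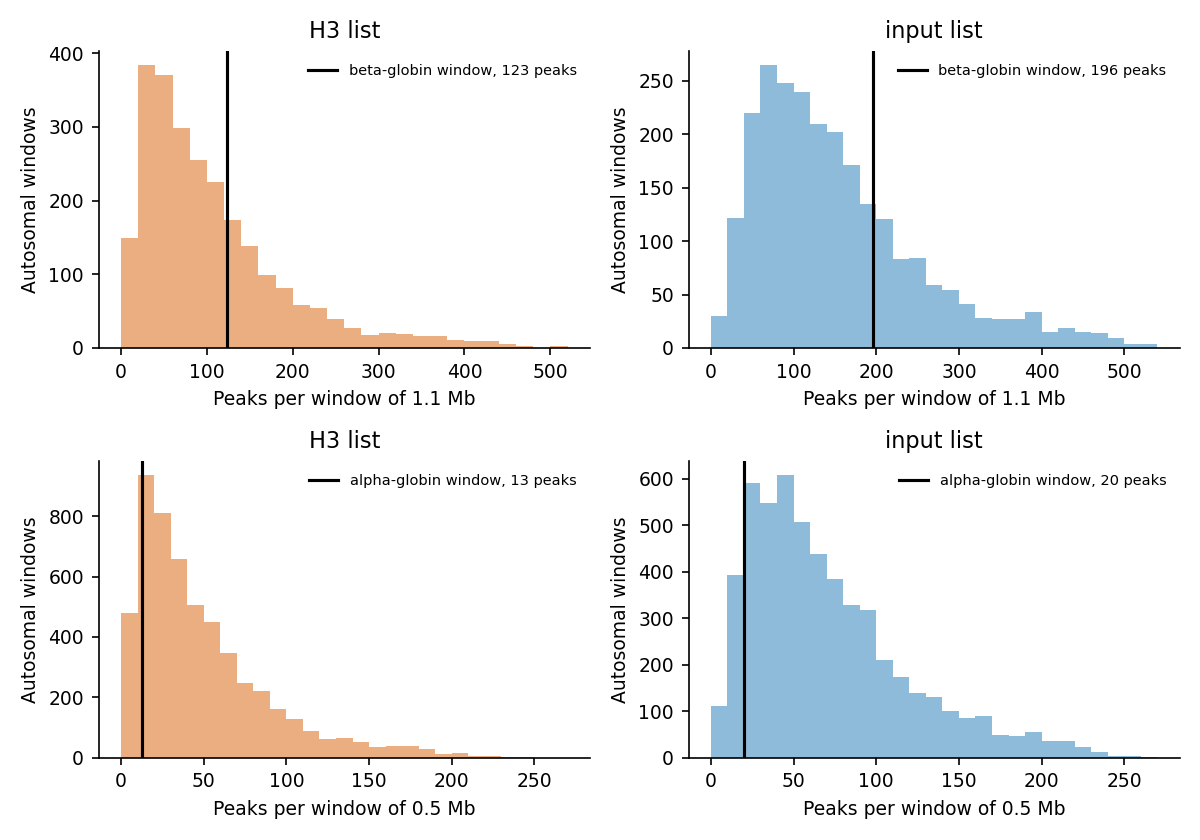
Number of autosomal windows (vertical axis) by peaks per window (horizontal axis), for windows of 1.1 Mb (top) and 0.5 Mb (bottom) in the H3 list (left) and the input list (right); the black line marks the globin window of that length. The beta-globin window (123 and 196 peaks) is above the median window but within the quartiles (44 to 140 and 78 to 202). The alpha-globin window (13 and 20 peaks) is at the low end.

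The excess of the beta-globin window over the autosomes consisted of peaks with few HMGA1 reads, but it remained under limits on fold or q-value. The number of HMGA1 reads piled up at each summit was worked out from the fold and the p-value of its peak, with a whole number fitted for every peak of both lists. Peaks of the beta-globin window had a median of 21 reads by the H3 list and 17 by the input list, those of the alpha-globin window 25 and 22.5, and those of the whole lists 23 and 19. Peaks of at least 25 reads numbered 30 in the beta-globin window and 7 in the alpha-globin window, with the same counts in both lists. Their density was 27.3 per Mb in the beta-globin window and 14 per Mb in the alpha-globin window, a ratio of 1.95. Over autosomes this density was 37.7 per Mb by the H3 list and 37.9 by the input list. At this height the beta-globin window was therefore below the autosomes, at 0.724 and 0.72 times their density, and it exceeded 51.2% of windows in either list. The alpha-globin window was at 0.371 and 0.37 times the autosomes, but at 2.14 and 2.11 times chromosome 16.

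Peaks of 15 to 24 reads were denser in the beta-globin window than over the autosomes. The beta-globin window had 85 of them by the H3 list and 111 by the input list, at 1.54 and 1.49 times the autosomal density. The alpha-globin window had 6 and 13, at 0.24 and 0.384 times. Below 15 reads the beta-globin window had 8 peaks (6.5% of its peaks) by the H3 list and 55 (28.1%) by the input list, while the alpha-globin window had none in either. The whole lists had 3.53% and 20.7% of peaks below 15 reads.

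The level of the control library at the summits also differed between the windows. MACS2 does not let the control fall below a genome-wide floor, which was 2.19 reads by the H3 list and 2.78 by the input list. These 2 values are not in the same unit. The H3-list control is on the scale of HMGA1 reads multiplied by 0.787, and the input-list control on that of unscaled HMGA1 reads. In the beta-globin window the control was at this floor at 102 of 123 peaks in the H3 list (82.9%, Wilson 95% interval 75.3 to 88.6%) and at 148 of 196 in the input list (75.5%, 69 to 81%). In the alpha-globin window it was above the floor at all 13 peaks and all 20 peaks, with a median of 1.37 and 1.3 times the floor. Over the whole lists 42.9% and 36.9% of peaks had a control at the floor, and on chromosome 16 as a whole 72.9% and 77%. The lowest pileups were 13 and 9 reads in the beta-globin window and 18 and 15 in the alpha-globin window. The part of the control level in the density difference was not tested.

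**Figure D3:**
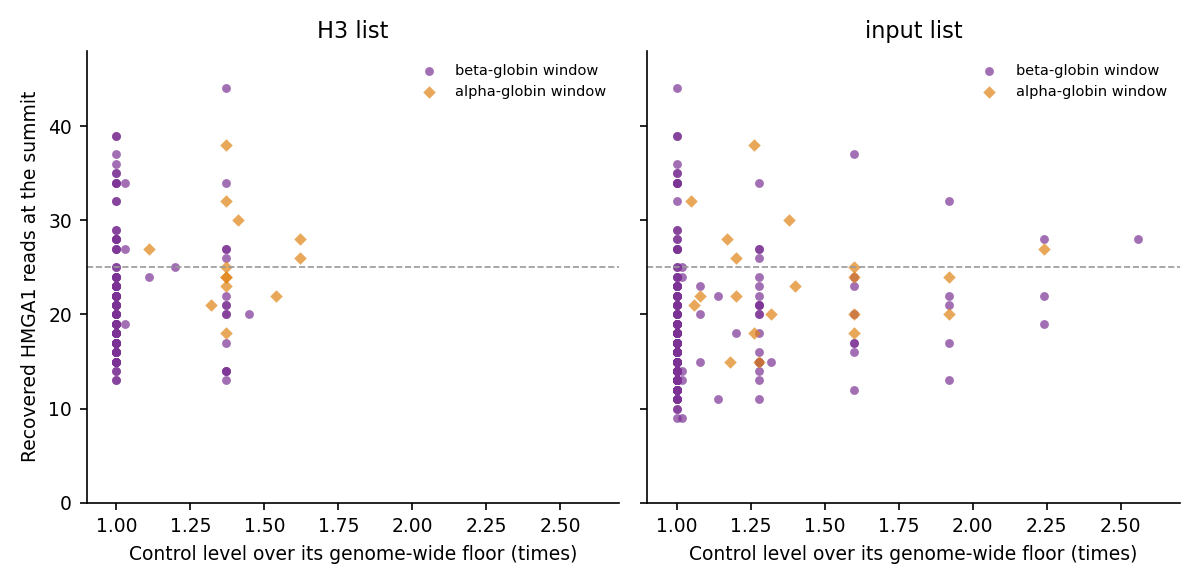
HMGA1 reads at the summit (vertical axis) against the control level as a multiple of its genome-wide floor (horizontal axis) for every peak of the beta-globin and alpha-globin windows, in the H3 list (left) and the input list (right); the dashed line is at 25 reads. Most beta-globin peaks stand at 1 times the floor and reach down to 13 and 9 reads, while every alpha-globin peak is above the floor.

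Fold enrichment over the control, the authors' value for each peak, did not separate the windows as density did. Median folds in the H3 list were 5.36 in the beta-globin window (quartiles 4.51 to 6.11) and 4.97 in the alpha-globin window (4.71 to 6.02), beside 5.25 over the whole list. In the input list they were 4.5 (3.7 to 5.62) and 4.68 (3.87 to 5.88), beside 4.5. A fold of at least 4 was reached by 114 of 123 beta-globin peaks (92.7%, 86.7 to 96.1%) and 12 of 13 alpha-globin peaks (92.3%, 66.7 to 98.6%) in the H3 list, where the whole list stood at 83.8%. In the input list the counts were 127 of 196 (64.8%, 57.9 to 71.1%) and 13 of 20 (65%, 43.3 to 81.9%), with 63.5% over the whole list. The interquartile ranges of the windows overlapped in both lists.

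Nearly every peak called against H3 was also called against input, in these loci as elsewhere. All 123 beta-globin peaks and all 13 alpha-globin peaks of the H3 list overlapped an input-list peak by at least 1 base, against 98.3% of the whole list. In the other direction 119 of 196 beta-globin peaks (60.7%, 53.7 to 67.3%) and 12 of 20 alpha-globin peaks (60%, 38.7 to 78.1%) of the input list had an H3-list counterpart, against 65.8% of the whole list. The 77 beta-globin peaks found against input only had a median fold of 3.7 and a median of 14 reads (9 to 21). The 8 alpha-globin peaks of this kind had a median fold of 3.79 and a median of 19 reads (15 to 22). Over the whole input list such peaks had a median fold of 3.7 and a median of 14 reads. Every peak of at least 25 reads in either window was in both lists. Nearly all such peaks elsewhere were too, at 99.7% of the whole H3 list and 98.5% of the whole input list.

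**Figure D4:**
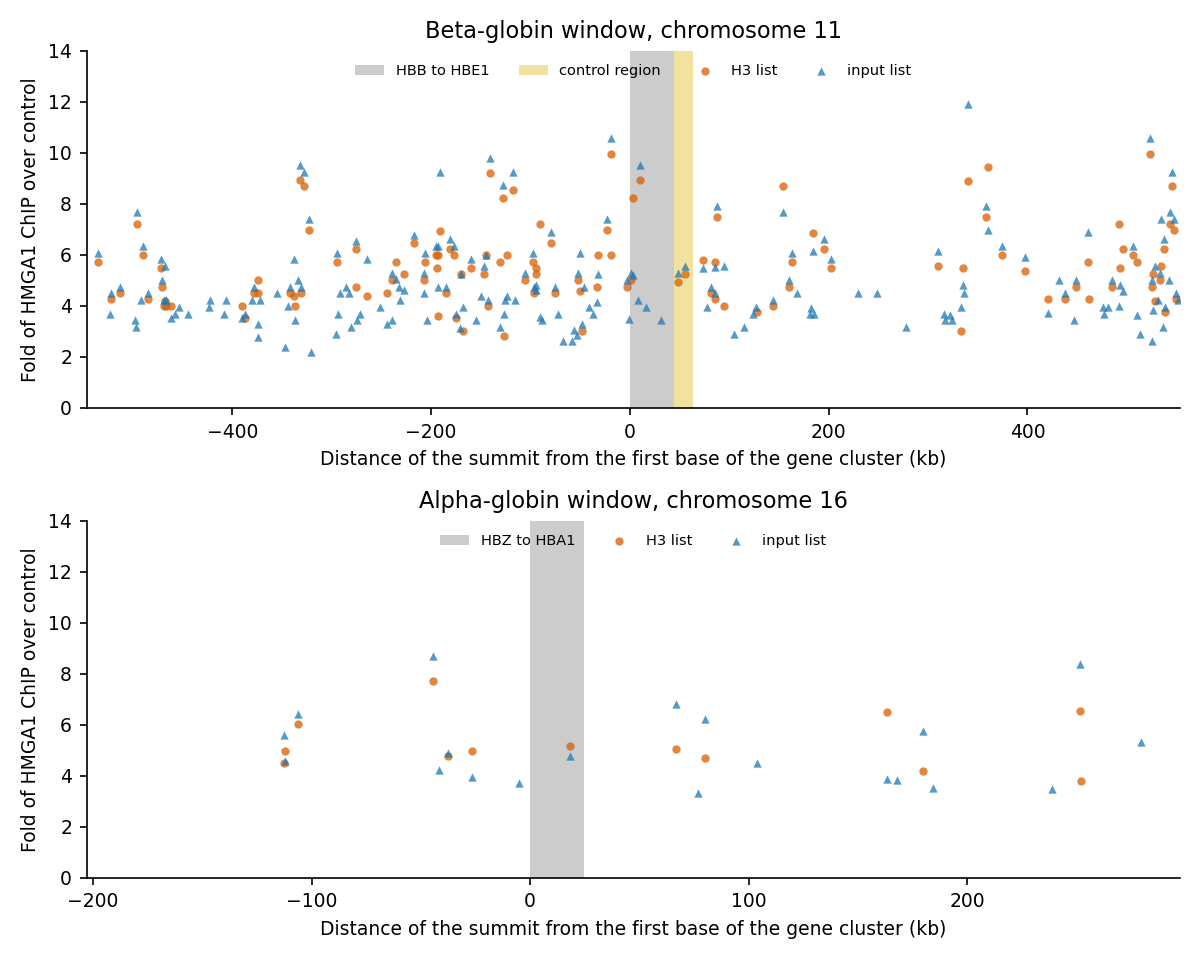
Fold enrichment of HMGA1 over control (vertical axis) by distance of the summit from the first base of the gene cluster (horizontal axis, kb) in the beta-globin window (top) and the alpha-globin window (bottom); circles are H3-list peaks, triangles input-list peaks, and shading marks the gene clusters and the control region. The top panel holds 123 and 196 peaks over 1.1 Mb and the bottom panel 13 and 20 over 0.5 Mb.

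Inside the beta-globin window, with all peaks counted, the genes themselves were not the densest stretch. The olfactory receptor side before HBB held 133.5 peaks per Mb in the H3 list (interval 104.7 to 167.9) and 214.0 in the input list (177.0 to 256.5). The HBB to HBE1 cluster held 67.1 (13.8 to 196.2) and 134.3 (49.3 to 292.3), from 3 and 6 peaks. The control region held 107.4 per Mb (13 to 387.9) in either list, from 2 peaks. The stretch beyond the control region held 91.8 (67 to 122.9) and 144.9 (113.2 to 182.8). The intervals of the cluster and of the control region covered the densities of both flanks, so a difference of the genes from their flanks was not detectable with so few peaks. Among peaks of at least 25 reads the order changed, and the cluster was the densest stretch in both lists. It held 44.8 such peaks per Mb, but from only 2 peaks. The stretch before HBB held 23.8, the control region 0 and the stretch beyond it 30.6. By RefSeq gene order the nearest neighbours before HBB are OR51V1, OR52Z1P, OR51A1P and OR52A1, and those beyond HBE1 are OR51AB1P, OR51B4, OR51B3P and OR51B2; all belong to the olfactory receptor family, which encodes odorant receptors.

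Of the 4 globin genes at the cluster ends (HBB, HBE1, HBZ and HBA1), HBB, the adult beta-globin gene, had the closest peak. The summit was at base 5247398 in both lists, 702 bp inside the HBB end of the cluster (the 3′ end of HBB), which places it within the gene. The interval in the input list was chr11:5247210-5247576. It had 19 HMGA1 reads (exact Poisson interval 11.4 to 29.7), with a fold of 5 over H3 and 5.29 over input, and both controls were at their floor. This was a modest peak, below the median of 21 reads of its window in the H3 list and above the median of 17 in the input list. Outside the cluster, on the 3′ side of HBB, the closest H3-list summit was 2657 bp beyond the 3′ end (fold 4.75, 18 reads). An input-list peak on that side stood closer, at 1425 bp, with a fold of 3.47 and 21 reads; its input control was at 1.92 times the floor and it was not in the H3 list.

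Both high peaks of the beta-globin cluster lay on the HBB side of it, where RefSeq order puts HBD, the minor adult gene, next to HBB; HBD itself was not placed on hg19 here. The highest was chr11:5256111-5256491 in the input list, with its summit 9651 bp from the HBB end. It had 35 HMGA1 reads (24.4 to 48.7), a fold of 8.95 over H3 and 9.52 over input, and both controls at the floor. It was among the 5 highest folds of the window in either list, and 5.55% of the whole H3 list and 2.73% of the whole input list had a higher fold. The other was chr11:5249546-5249880, with 32 reads (21.9 to 45.2). Its fold was 8.21 in the H3 list, where the control was at the floor, and 5.21 in the input list, where the control was 5.34 reads or 1.92 times the floor. The HMGA1 reads of this peak were equal in both lists, and the 2 recovered control levels were not. Between these high peaks the input list had a lower one, chr11:5254466-5254662, with 15 reads and a fold of 4.23; its input control was at the floor and it was not in the H3 list.

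The HBE1 side of the beta-globin cluster had low peaks or none. The fetal genes HBG1 and HBG2 were not placed on hg19 here, so no peak or gap was assigned to them. From base 5256494 to base 5294757, a stretch of 38264 bp that includes the 5′ end of HBE1, the H3 list had no peak. This was the third longest stretch between neighbouring peaks of the window in that list; the longest, 107638 bp, ran from 5449424 to 5557061 beyond the control region. The input list had 2 peaks inside it within the cluster, and both were low. The peak at chr11:5262285-5262476 had 14 reads and a fold of 3.97, and the peak at chr11:5278303-5278557 had 12 reads and a fold of 3.44. The peak of 12 reads was the nearest to the 5′ end of HBE1 inside the cluster, 12948 bp from it. Both had an input control at the floor and were not in the H3 list.

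The control region held 2 peaks, in both lists and of middling height. The peak at chr11:5294716-5295390 in the input list was the closest to HBE1, 3866 bp beyond its 5′ end by the H3-list summit and 3864 bp by the input-list summit. It had 19 reads (11.4 to 29.7), with a fold of 4.92 over H3 and 5.29 over input. The peak at chr11:5301603-5301874 had its summit 10400 bp beyond HBE1, 20 reads (12.2 to 30.9), and folds of 5.25 and 5.55. No peak of the control region reached 25 reads. The cluster had 2 such peaks, the stretch before HBB 13 and the stretch beyond the control region 15. These stretches ranged from 0.0186 Mb (control region) to 0.547 Mb (before HBB), so the counts are not directly comparable. By the H3 list, such peaks made up 66.7% of cluster peaks, 17.8% before HBB and 33.3% beyond the control region. The input list gave 33.3%, 11.1% and 21.1%. Over the whole lists the shares were 41.3% and 28.3%. With only 2 peaks in the control region, the lack of a high one there cannot show a difference. The hypersensitive sites of the region were not placed on hg19 here.

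**Figure D5:**
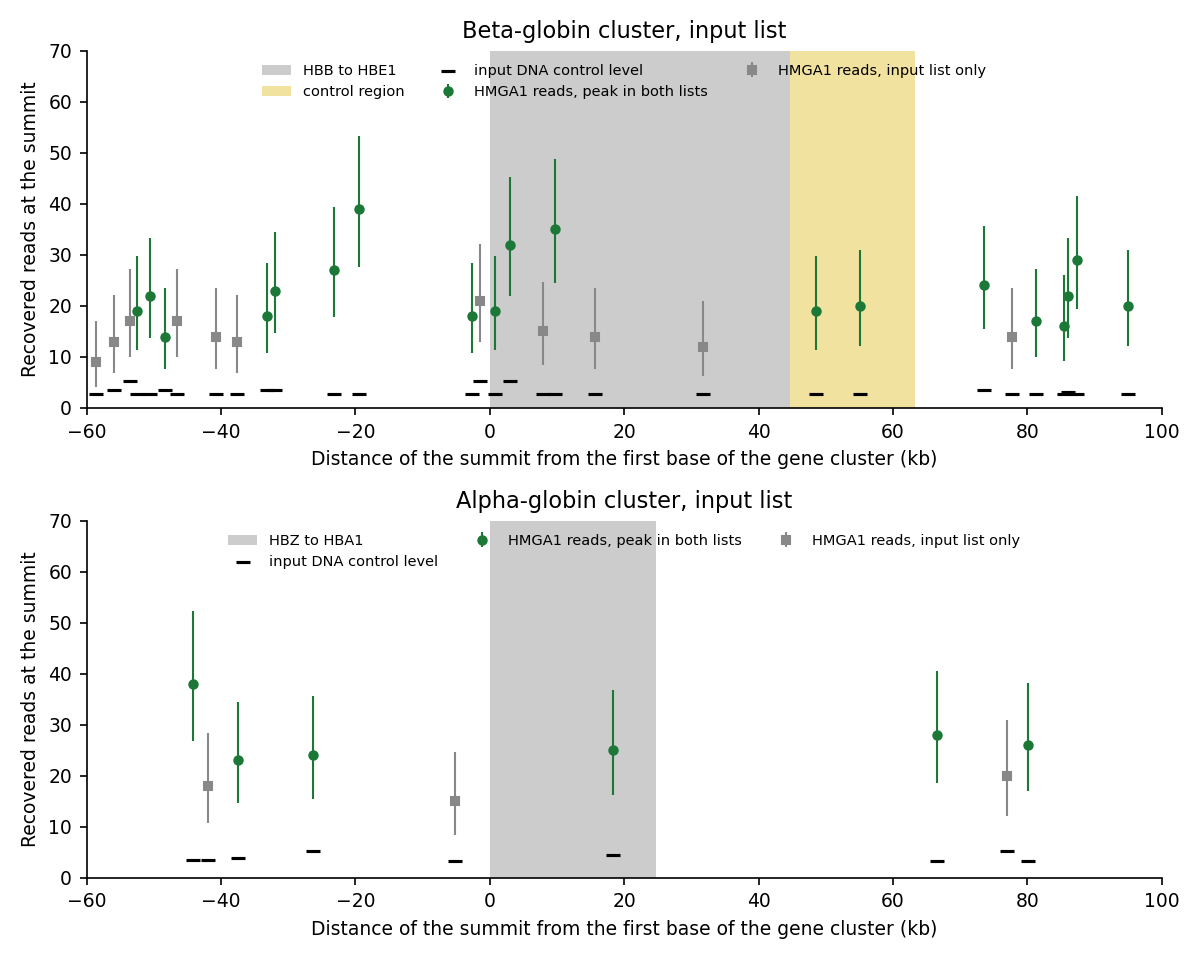
HMGA1 reads at each input-list summit with exact Poisson 95% intervals (vertical axis) by distance from the first base of the gene cluster (horizontal axis, kb), for the beta-globin cluster (top) and the alpha-globin cluster (bottom); black bars are the input DNA level, circles are peaks in both lists and squares are peaks in the input list only. The 6 peaks of the HBB to HBE1 cluster range from 12 to 35 reads with the 2 highest on the HBB side, and the HBZ to HBA1 cluster has 1 peak of 25 reads.

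The highest peaks of the beta-globin window lay outside the globin genes. In the H3 list 2 peaks shared the highest fold of 9.94, with 39 reads each (27.7 to 53.3) and a fold of 10.6 in the input list. Their intervals were chr11:5226355-5227572, before HBB, and chr11:5769073-5769820, near the far end of the window. In the input list the highest was chr11:5587022-5587366, with 44 reads (32 to 59.1) and a fold of 11.9; 0.482% of the whole input list was higher. Its fold in the H3 list was 8.9, with an H3 control at 1.37 times the floor. The peak at 5106133 to 5106495 followed with 36 reads and folds of 9.2 over H3 and 9.78 over input. The peak at 5607224 to 5607581 of the H3 list had 37 reads, with a fold of 9.44 there and 6.97 in the input list, where the control was at 1.6 times the floor.

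Peaks of the beta-globin window were unevenly spread. In bins of 50 kb their number ranged from 0 to 14 in the H3 list (median 5.5, 3 of 22 bins empty) and from 1 to 20 in the input list (median 9, none empty). The fullest bin in both lists was the last, from 5750001 to 5800000. The alpha-globin window had 0 to 3 peaks per bin in the H3 list (median 1.5, 4 of 10 bins empty) and 0 to 5 in the input list (median 1.5, 2 empty). Neighbouring summits were a median of 4944 bp apart in the beta-globin window and 15076 bp apart in the alpha-globin window in the H3 list, and 3342 bp and 12038 bp apart in the input list.

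The alpha-globin cluster held a single peak. It was at chr16:221095-221381 in the input list, with its summit at base 221230 in both lists, 18376 bp from the HBZ end and 6291 bp from the HBA1 end of the cluster. It had 25 HMGA1 reads (16.2 to 36.9) and a fold of 5.17 over H3 and 4.77 over input. Its controls were at 1.37 and 1.6 times their floors. The density this gives, 40.5 per Mb, has an interval of 1.03 to 225.9 that covers that of the beta-globin cluster, so the 2 gene clusters taken alone could not be told apart in density. Per peak, the alpha-globin peak (25 reads) was lower than the 2 high peaks of the beta-globin cluster (35 and 32 reads), and its interval overlapped both of theirs. The alpha-globin peak was higher than the other input-list peaks of the beta-globin cluster, which had 19, 15, 14 and 12 reads. Their intervals overlapped its interval as well.

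HBZ and HBA1 had no H3-list summit nearer than 6291 bp to their end of the cluster. HBZ is the embryonic alpha-like gene; its closest H3-list summit outside the cluster was 26382 bp upstream. The input list had 1 closer, at chr16:197647-197851, 5139 bp upstream with 15 reads (8.4 to 24.7) and a fold of 3.73. Beyond HBA1, an alpha-chain gene, the closest summit was 41874 bp away by the H3 list and 41876 bp away by the input list, with 28 reads and folds of 5.06 and 6.81. In comparison, HBB had a summit 702 bp inside its end.

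Upstream of HBZ, the side that RefSeq order gives to NPRL3, MPG (a DNA repair glycosylase), RHBDF1, SNRNP25 (a minor-spliceosome protein) and POLR3K (an RNA polymerase III subunit), the H3 list had 6 peaks and the input list 8. The peak at chr16:158480-158812 of the input list had the highest fold of the alpha-globin window in both lists, 7.72 over H3 and 8.68 over input. It had 38 reads (26.9 to 52.2) and lay 44224 bp before HBZ. Its controls were at 1.37 and 1.26 times the floor. The next peaks towards HBZ were lower. The input-list peak from 160889 to 161116 had 18 reads and a fold of 4.23 and was not in the H3 list. The peak from 165201 to 165455 had 23 reads and folds of 4.77 over H3 and 4.9 over input. That from 176335 to 176616 had 24 reads and folds of 4.97 and 3.94, with an input control at 1.92 times the floor. Farther out, the peak from 96641 to 97059 had 30 reads (20.2 to 42.8) and folds of 6.02 and 6.42.

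Beyond HBA1, towards LUC7L (a splicing factor gene), FAM234A, RGS11, ARHGDIG and PDIA2, the H3 list had 6 peaks and the input list 11. The second highest fold of the alpha-globin window was here, at chr16:454005-454751 of the input list, with 32 reads (21.9 to 45.2) and a fold of 8.4. That interval held 2 peaks of the H3 list, with folds of 6.54 and 3.8. The peak from 365967 to 366274 had 27 reads (17.8 to 39.3), and its fold was 6.48 over H3 and 3.87 over input. The input control there was at 2.24 times its floor and the H3 control at 1.11 times. The peak from 282788 to 283093 had 26 reads and folds of 4.71 and 6.24, with an H3 control at 1.62 and an input control at 1.2 times the floor. Beside the start of the chromosome before its first peak, the longest stretch between neighbouring peaks of the alpha-globin window was 82964 bp in the H3 list, from 283009 to 365972, and 61420 bp in the input list, from 97060 to 158479.

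How far the fold depended on the control was compared over the peaks found in both lists. In the beta-globin window 71 of 123 pairs had both controls at the floor, 31 only the H3 control, 16 only the input control and 5 neither; over the whole lists 21.1% of pairs had both at the floor and 49.1% neither. In the alpha-globin window 13 of 13 pairs had neither control at the floor. The input control, as a multiple of its floor, exceeded that of H3 by more than 1.5 times at 12 of the 123 beta-globin pairs (9.76%), at 1 of the 13 alpha-globin pairs (7.69%) and at 12.1% of pairs over the whole lists. The reverse was seen at no pair of either window and at 4.16% over the whole lists. The peak between 5249546 and 5249880 in the beta-globin cluster was among these 12, and the peak at 365967 was the 1 of the alpha-globin window.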

How the data were processed

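ChIP-seq of HMGA1 and histone H3 and sequencing of input DNA gave 1 library each. Peaks were called with MACS2 on hg19, per the submitters' processing notes; its version, the aligner and any read filter are not given here by any source. Each of the 2 deposited peak lists gives the authors' own fold enrichment ratio per summit, −log10 p-value, −log10 q-value and score. Names of single peaks do not spell HMGA1; the ChIP library was identified by the list names and the labels. Total read numbers are unknown.

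Summit reads were worked out from the deposited values, with the fold read as (pileup + 1) over (control + 1) and the p-value as the Poisson probability of more reads than the pileup given the control. A whole pileup fitted 263033 of 263033 peaks of the H3 list, after a factor of 0.787 on the HMGA1 pileup, and 385953 of 385953 of the input list, within 0.001 of the −log10 p-value. At the 62 summits of the windows shared to the base, the lists gave equal pileups at 62. In simulated peaks 100.0% of pileups were recovered for the H3 list (4851 peaks) and for the input list (4903).

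A control within 0.5% of its lowest level was counted as at the floor. Lists were matched by an overlap of at least 1 base. Window ranks used autosomal windows of the same length, and the last peak end of a chromosome stood for its length. Intervals are exact Poisson for counts and densities and Wilson for shares, at 95%. All globin genes, every peak in the gene clusters and the control region, and the 5 highest folds of each window and list were to be named; further peaks were named after their values were seen. The members and lists were chosen with earlier results of these data known. Gene positions on hg19 were limited to the cluster ends, so HBD, HBG1, HBG2 and HBA2 were not placed. RefSeq tables (GRCh38.p14) gave gene order and promoters. Alternatives were a −log10 q of at least 5, at least 25 reads, a fold of at least 4, other window bounds (200 kb to either side of each cluster, or chromosome 16 from its first peak) and stricter matching (50% of both peaks, or summits within 200 bp). Versions were matplotlib 3.10.9, scipy 1.17.1, pandas 2.3.3, numpy 2.4.6 and Python 3.11.15.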

Additional observations from a re-analysis of the deposited data

How the results depend on the processing

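Over 26 results and 94 alternatives, 63 values stayed within their error or within 1.5 times the count, 29 moved and 2 reversed. Both reversals were the beta-globin density over autosomes among peaks of at least 25 reads, at 0.724 (H3 list) and 0.72 (input list). With that minimum the counts were 30 beta-globin and 7 alpha-globin peaks in either list, and the density ratio was 1.95; under the other alternatives the ratio was 3.52 to 4.95 in the H3 list and 3.65 to 4.61 in the input list. The minimum also moved the beta-globin median fold to 7.35 (H3 list) and 7.67 (input list), the alpha-globin one to 6.42 (input list), and the shares with a fold of at least 4 to 100% in both windows (H3 list) and to 96.7% and 85.7% (input list). It moved the shares of input-list peaks in the H3 list to 100% in both windows. A −log10 q of at least 5 moved the beta-globin median fold to 5.21 (input list), the shares with a fold of at least 4 to 100% in both windows (H3 list) and 96.9% in the beta-globin window (input list), and the beta-globin shares in the other list to 95.9% (H3 list) and 68.7% (input list). A fold of at least 4 left 127 beta-globin and 13 alpha-globin input-list peaks and moved the beta-globin shares to 90.4% (H3 list) and 78% (input list). Matching by 50% of both peaks gave 90.2% and by summits within 200 bp 96.7% for the beta-globin H3-list peaks. Within 200 kb of each cluster 100% of alpha-globin H3-list peaks had a fold of at least 4. For the shares in the other list, each limit on q-value, reads or fold was applied to both lists before matching. The causes of the moves were not tested further. The nearest summit to HBZ was 18376 bp away in the H3 list, against 5139 bp in the input list.

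With 1 library per antibody, no paired analysis of samples was possible and no library was left out. The gene clusters rest on few peaks, 3 (H3 list) and 6 (input list) for beta-globin and 1 in either list for alpha-globin, and their density intervals are wide.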
